A study of Mus musculus with 50 samples.

Results

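Of the 163235 intervals of open chromatin called in the first ATAC-seq library of motor neurons at P21, 80211 also held a peak in the second P21 library and in both libraries of P56 and of 2yr, and 4996 of these held no peak in any library of the embryo, of P4 or of untreated culture. These 4996 intervals, 3.06% of the P21 intervals and 6.23% of the adult ones, are the members described here. An interval was a member when it overlapped by at least 1 bp a peak in each of the 6 adult libraries and no peak in the 12 libraries of E10.5, E13.5, P4, DIV0, DIV7 and untreated DIV28. Those 18 peak lists chose the members, so absence from these cultures is given by the choice and is no result. The 2 libraries of P13 and the 2 of cultures grown with TTX were not used in the choice. Of the members 4540 (90.9%) had a peak in a P13 library, against 82.1% of all P21 intervals. In a culture with TTX 724 members (14.5%) had a peak, against 59.7% of all P21 intervals. Members were therefore neither confined to the adult ages nor closed in every culture.

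The study followed mouse spinal motor neurons from the embryo to old age and compared them with motor neurons made from embryonic stem cells, with 22 ATAC-seq libraries (2 for each of 11 groups) and 27 labelled RNA-seq libraries (18 in vivo and 9 in culture). The E10.5 libraries came from sorted cells of C57BL/6 mice carrying HB9-GFP, a green fluorescent reporter of motor neurons, and their RNA was whole cell RNA. Every later age (E13.5, P4, P13, P21, P56 and 2yr) and every culture was labelled Chat-Cre;SUN1-GFP-3xMYC, in which Cre expressed from the gene of choline acetyltransferase switches on a tagged protein of the nuclear membrane, so nuclei of all cholinergic neurons were captured and nuclear RNA was sequenced. Nuclei were pooled from several animals of both sexes. From E13.5 on the RNA came from brachial and lumbar cord and the chromatin also from thoracic cord, and at E10.5 both came from all 3 levels. Motor neurons made from stem cells were collected from embryoid bodies at DIV0, before plating, or after 7 or 28 days in vitro (DIV7, DIV28) on cortical astrocytes with neurotrophic factors, the last also with 1 µM TTX, a blocker of voltage-gated sodium channels, present throughout. Per the paper, the differentiation protocol yields motor neurons of cervical identity. No source used here says whether replicate cultures were differentiated separately, so p-values measure the spread between these libraries. RNA libraries held between 2704642 and 21823492 counts, the highest being DIV28 replicate 2, and ATAC-seq libraries between 80386 and 224328 peaks, with the number of reads behind them unknown. The 6 motor neuron markers had a summed level of 635 to 748 CPM (counts relative to library size) at P21 and 1583 to 1793 CPM at DIV28. Taken singly, 1 of the 6 was called lower at P21 than at DIV28 (limits below) and none higher. Their median log2 difference was −0.30. Fewer cells of a type and less RNA per cell cannot be told apart in these bulk samples.

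ATAC-seq marks DNA that a transposase can reach, which includes promoters and distal enhancers bound by transcription factors. Neurons keep many enhancers of their identity from the embryo and open others after birth, when synaptic, hormonal and activity signals reach factors such as nuclear factor I (NFI), nuclear receptors, AP-1 and MEF2. Cultured neurons of a defined type are a common model of disease.

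Sequences of 201 bp around the summit, from the RefSeq GRCm38.p6 assembly (mm10, plus strand), are shown for the member with the strongest adult signal that held a match to each of 6 binding motifs and touched no annotated untranslated region, so that the letters counted in the motif comparison can be seen in place. Capitals mark the match. The first lay in an intron of *Tet2*, an enzyme that oxidises 5-methylcytosine, and held the steroid receptor motif ACANNNTGT 90 bp before the summit.
chr3:133509826-133510026: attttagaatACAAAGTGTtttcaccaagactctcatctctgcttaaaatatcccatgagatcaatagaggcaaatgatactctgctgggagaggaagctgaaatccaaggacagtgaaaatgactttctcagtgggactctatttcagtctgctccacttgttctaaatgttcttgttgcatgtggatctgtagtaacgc
The second, with the HOX motif TTTATNG, lay outside protein-coding genes, 2.49 kb from a start site of *Efr3a*, which anchors a lipid kinase at the plasma membrane.
chr15:65784455-65784655: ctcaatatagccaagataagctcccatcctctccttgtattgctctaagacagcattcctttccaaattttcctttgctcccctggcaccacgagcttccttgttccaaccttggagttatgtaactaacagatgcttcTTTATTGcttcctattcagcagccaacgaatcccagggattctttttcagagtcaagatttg
The third, with the AP-1 motif TGANTCA, lay outside protein-coding genes, 727 kb from the nearest of their start sites.
chr15:63082084-63082284: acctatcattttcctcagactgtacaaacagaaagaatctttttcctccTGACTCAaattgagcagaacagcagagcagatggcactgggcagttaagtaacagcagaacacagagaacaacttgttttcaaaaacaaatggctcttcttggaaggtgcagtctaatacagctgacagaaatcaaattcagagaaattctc
The fourth held a match to the MEF2 consensus 2 bp after its summit and lay in an intron, 148 kb from the nearest protein-coding start site, that of *Parp8*, an ADP-ribosyltransferase.
chr13:116876864-116877064: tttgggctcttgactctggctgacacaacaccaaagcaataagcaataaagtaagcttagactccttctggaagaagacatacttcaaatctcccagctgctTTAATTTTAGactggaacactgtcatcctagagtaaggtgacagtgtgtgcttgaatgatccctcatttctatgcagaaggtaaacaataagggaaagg
The fifth lay in an intron of *Nrxn3*, a presynaptic adhesion molecule, and held on its minus strand the nuclear receptor motif TCAAGGTCA.
chr12:89269708-89269908: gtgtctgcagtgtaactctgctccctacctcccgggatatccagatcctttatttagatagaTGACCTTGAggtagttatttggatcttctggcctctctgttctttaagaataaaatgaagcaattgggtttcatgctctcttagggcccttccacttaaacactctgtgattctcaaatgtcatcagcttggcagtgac
The sixth, with the short NFI palindrome TGGCNNNNNGCCA, lay outside protein-coding genes, 110 kb upstream of *Bod1l*.
chr5:41953743-41953943: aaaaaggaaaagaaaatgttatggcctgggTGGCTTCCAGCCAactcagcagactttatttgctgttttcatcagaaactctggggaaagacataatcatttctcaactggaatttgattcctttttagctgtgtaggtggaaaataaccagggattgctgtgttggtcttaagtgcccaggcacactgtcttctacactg

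By strength the members were ordinary peaks. Their median −log10 p at P21 was 8.30 and their median fold enrichment over the local background of the library 3.46, against 6.78 and 3.08 for all P21 intervals and 15.6 and 4.64 for the intervals present in all 6 adult libraries. Their median width was 417 bp. Only 6 members stood among the 10000 strongest P21 peaks, and 3884 (77.7%) among the strongest 100000. The margin of the choice was narrow for some of them. A peak of an excluded library lay within 100 bp of 182 members and within 500 bp of 943, and the median distance to the nearest was 1540.5 bp. Just outside the choice, 4497 adult intervals were kept out by 1 library alone, 1518 of them by the first DIV28 library and 1274 by the first P4 library. The single excluding peak had a median −log10 p of 4.63, and these intervals had a median P21 −log10 p of 8.47, close to that of the members.

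**Figure D1:**
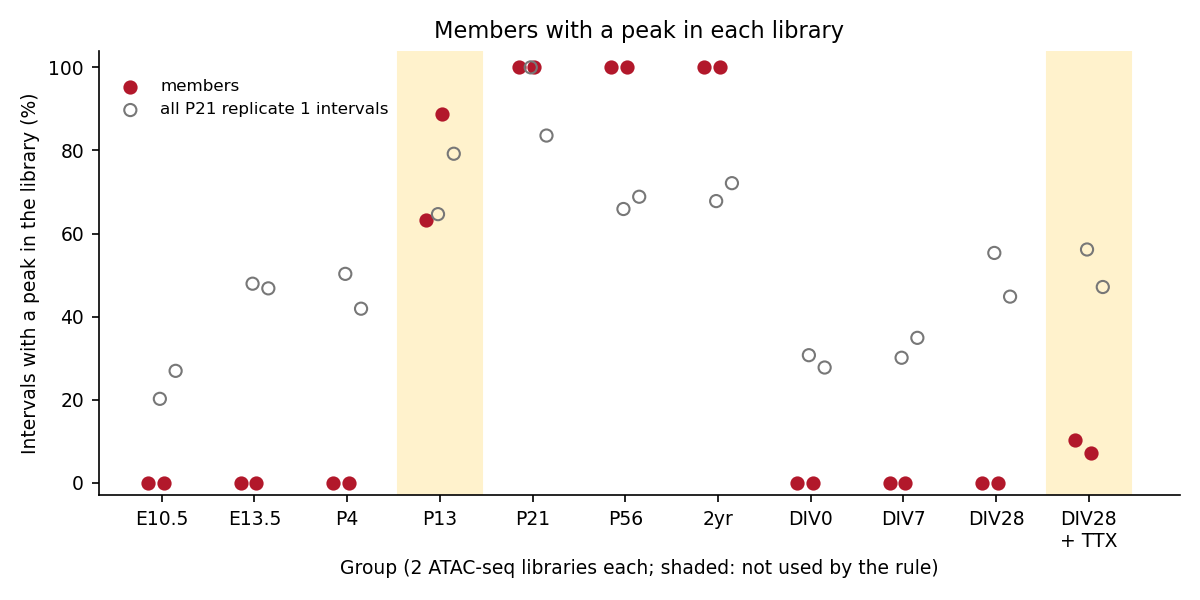
Share of the 4996 members (filled) and of all P21 replicate 1 intervals (open) that overlapped a peak in each ATAC-seq library, in percent, with 2 libraries per group. In the shaded groups, which the choice did not use, members reached 63.3% and 88.9% at P13 and 10.4% and 7.23% in cultures with TTX.

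At P13, before the adult ages that defined them, most members were already open. The first P13 library held a peak at 63.3% of members and the second at 88.9%, against 64.7% and 79.2% of all P21 intervals and 90.6% and 97.9% of the adult intervals. Members were thus less often open at P13 than the adult intervals as a whole. A peak in at least 1 of the 2 was held by 90.9% of members, 82.1% of all P21 intervals and 98.4% of the adult intervals. Thus 3061 members were called in both P13 libraries, 1479 in 1 and 456 in neither. The share called in both, 61.3%, was near the 61.7% of all P21 intervals and below the 90.1% of the adult intervals. Over the members called, the median −log10 p was 5.48 and 10.6 in the P13 libraries and 8.30 and 13.2 in those of P21, ranges that overlapped. Members open in both P13 libraries had a higher median P21 −log10 p, 8.97, than those open in neither, 6.76. In the cultures with TTX a peak covered 10.4% and 7.23% of members, against 56.2% and 47.1% of all P21 intervals and 75.3% and 66.6% of the adult intervals. The mean share was 76.1% ± 18.1 (SD, n = 2) at P13 and 8.81% ± 2.24 (SD, n = 2) with TTX, a difference of 67.3 percentage points in which both P13 libraries lay above both TTX libraries. An exact two-sided permutation test gave p = 0.333, the smallest that 2 libraries against 2 can give. Members were chosen for peaks at P21 and none in untreated DIV28, so this direction was largely set by the choice. By contrast, a TTX peak covered 93.1% and 80.9% of the adult intervals gained in culture (defined below), which were chosen for DIV28 peaks. Only 156 members were called in both TTX libraries, at a median −log10 p of 4.20 and 3.73 over the members called in each.

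Named here are the 12 members whose weakest adult peak was strongest, with chromosome 18 left out. They were taken at most once per nearest gene and within 100 kb of a protein-coding start site. All were open in both P13 libraries. The strongest, chr19:53076441-53077080 in mm10, lay outside protein-coding genes, 36.5 kb from the start of *Xpnpep1*, an aminopeptidase gene, and 509 bp from another annotated start site. Its −log10 p was 77.5 and 150.3 at P21, 59.0 and 82.8 at P56, 62.7 and 99.3 at 2yr, and 54.0 and 109.6 at P13. No TTX library had a peak there, and the 3 adult ages overlapped in strength. The *Tet2* interval, chr3:133509734-133510249, reached 40.05 and 98.6 at P21, 34.7 and 50.1 at P56, 31.9 and 46.0 at 2yr and 15.4 and 47.6 at P13. It was 1 of 2 named intervals with a peak in a culture with TTX, at a −log10 p of 7.88 in the first library alone. The other lay near *Ramac*, which activates mRNA cap methylation, with 5.78 and 2.59. The interval near *Efr3a*, chr15:65784260-65784790, showed 66.9 and 71.6 at P21, 32.4 and 62.8 at P56, 50.02 and 45.04 at 2yr and 26.7 and 77.7 at P13. In each of these 3 intervals the first P13 library was the lowest of the 8, while the second lay within or above the range of the adult libraries. The remaining intervals lay near *D930020B18Rik*, *Pitpnc1* (a phosphatidylinositol transfer protein), *Arhgef3* (a guanine nucleotide exchange factor), *Nedd1* (a centrosome protein), *Fam135b*, *B230118H07Rik*, *Arrb1* (β-arrestin) and *Tfdp2* (a partner of E2F factors), with weakest adult peaks between 24.4 and 38.6. The −log10 p also rises with read depth, which is unknown here, so no test was made between ages.

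**Figure D2:**
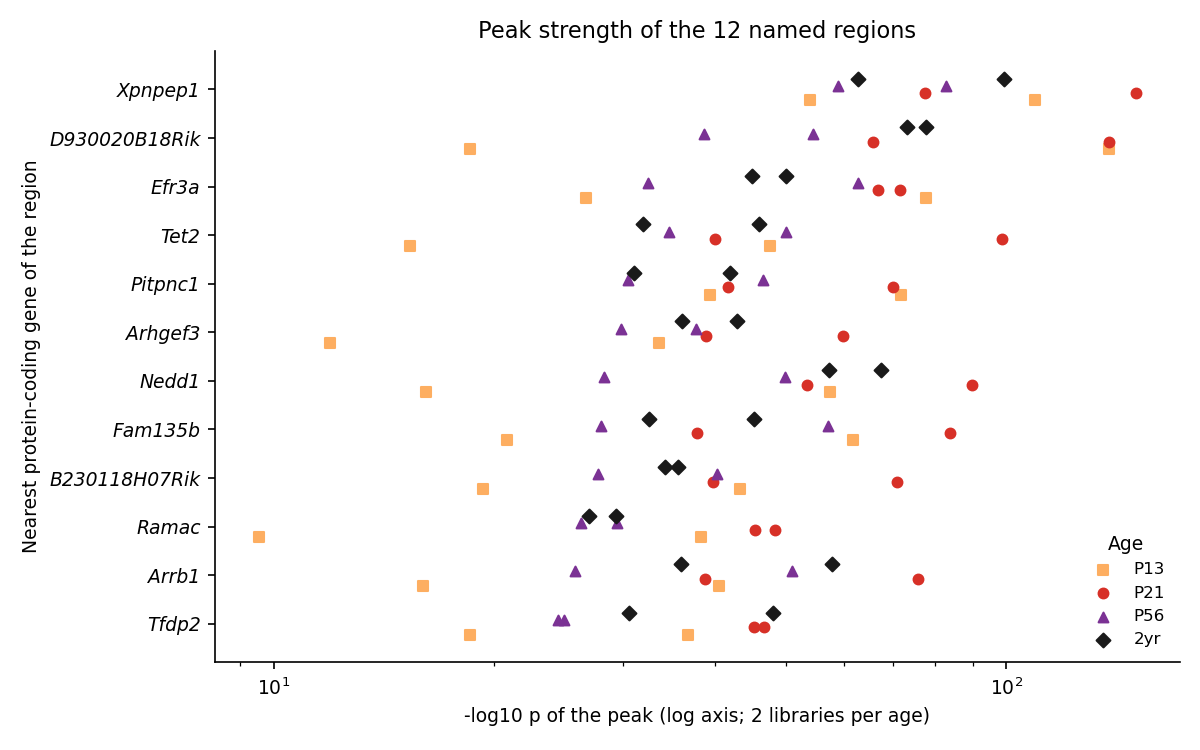
The −log10 p (log axis) of the peak at each of the 12 named members, labelled by the nearest protein-coding gene, with 2 points per age. The intervals near Xpnpep1 and D930020B18Rik reached 150.3 and 138.2 at P21, and every interval had a peak in both P13 libraries.

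Most members were distal. The summit lay over 2000 bp from any annotated start site in 4483 (89.7%, 95% Wilson interval 88.9 to 90.5%, counting error only), against 79.4% of all P21 intervals, 72.2% of the adult intervals and 88.5% of the 3940 adult intervals that were gained in culture, that is, absent from E10.5, E13.5, P4 and DIV0 but called in both DIV28 libraries. Introns held 2833 members (56.7%), the space outside protein-coding genes 1924 (38.5%), coding exons 116 and untranslated regions 70. Members lay farther from genes than the other sets. The median distance to a protein-coding start site was 61.0 kb, against 38.4 kb for the intervals gained in culture and 32.4 kb for all intervals, and 60.8% of members lay within 100 kb of one, against 72.5% and 74.5%. Of 37 marker genes of oligodendrocytes and their precursors, astrocytes, microglia, endothelium, pericytes and fibroblasts, 7 were nearest to 8 members in all, 0.160% of members against 0.149% of all intervals. They were *P2ry12* of microglia with 2 members and *Mbp*, *Gja1*, *Slc1a2*, *Slc1a3*, *Cdh5* and *Dcn* with 1 each. Motor neuron markers were represented by *Chat*, the acetylcholine-synthesising enzyme, with 2 members and *Slc5a7*, the choline transporter, with 3 members.

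The widest difference in sequence between members and intervals gained in culture was at AP-1 sites. These sets were chosen in opposite ways on untreated DIV28 peaks. The paper reports high enrichment of AP-1 motifs in peaks gained by DIV28, so a low share in members is partly set by the choice. For peaks gained in tissue alone, near genes raised in tissue alone, it reports Hox, steroid receptor and NFI motifs and no AP-1 enrichment. Those peaks were chosen otherwise than the members. AP-1 dimers of FOS and JUN proteins bind TGANTCA, and 289 members (5.78%) held a match within 100 bp of the summit, against 48.2% of the intervals gained in culture (1899 of 3940), 14.5% of the 4150 adult intervals opened by P4, that is, called in both P4 libraries and in none of E10.5 or E13.5, and 11.8% of all P21 intervals. The AP-1 spacing itself did not stand out in members. The same half-sites, TGA and TCA, separated by the 8 other spacings from 0 to 8 bases occurred in 3.48 to 7.51% of members (median 6.20%), so the true spacing lay inside the range of the others, while in the intervals gained in culture it stood at 48.2% against a median of 8.83%. In successive 20 bp steps away from the summit, members held 54, 59, 68, 55 and 57 AP-1 matches, whereas the intervals gained in culture held 638, 583, 459, 357 and 237. The share was 4.74% in members open in both P13 libraries, 6.90% with 1 and 9.21% with neither, and 8.43% in the 724 members with a TTX peak against 5.34% in the others.

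**Figure D3:**
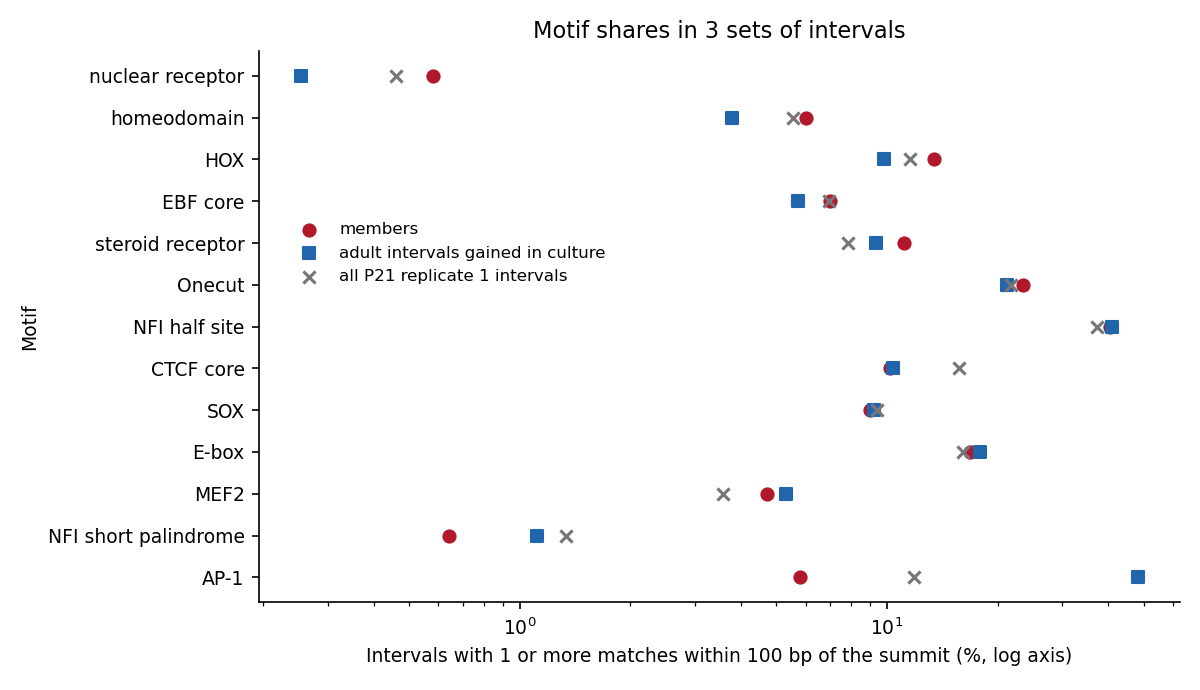
Share of members, of adult intervals gained in culture and of all P21 replicate 1 intervals with at least 1 motif match within 100 bp of the summit, in percent on a log axis. The widest gap is at AP-1, 5.78% of members against 48.2% of the intervals gained in culture, sets chosen in opposite ways on DIV28 peaks.

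Steroid receptor sites were the motif raised most in members relative to all intervals. The motif ACANNNTGT, bound by the glucocorticoid and mineralocorticoid receptors among others, was found in 554 members (11.1%), against 9.31% of the intervals gained in culture, 8.92% of those opened by P4 and 7.84% of all intervals. Over the whole interval in place of 100 bp the order against the intervals gained in culture turned, with 20.04% of members and 20.5% of those intervals, and 16.7% of all. The half-sites ACA and TGT at the 8 other spacings occurred in 3.14 to 10.3% of members with a median of 7.97%, so the motif stood above each of them in members, though close to the highest, at a spacing of 1 base. The same held for the intervals opened by P4 (8.92% against at most 8.65%) and the adult intervals (7.25% against at most 7.20%), so it was not particular to members. In the intervals gained in culture and in all intervals the highest other spacing, at 9.57% and 8.52%, exceeded the motif. At the motif spacing the share was 1.39 times that median in members, 1.29 times in the intervals gained in culture and 1.06 times in all intervals. Members with both an NFI half-site and the steroid receptor motif numbered 232 (4.64%), against 2.85% of all intervals. The MEF2 consensus was found in 4.72% of members, 5.30% of the intervals gained in culture and 3.58% of all. The nuclear receptor motif TCAAGGTCA, read by orphan receptors of the ERR and ROR families, was rare, in 29 members (0.580%) against 10 intervals gained in culture (0.254%) and 0.459% of all.

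NFI sites gave different answers for the single half-site and the palindrome. The half-site TTGGC occurred in 40.5% of members, 40.9% of the intervals gained in culture and 37.4% of all intervals. No member held the full palindrome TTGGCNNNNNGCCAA, which was found in only 79 of all 163235 windows. The shorter palindrome TGGCNNNNNGCCA, searched for that reason, was held by 32 members (0.641%) against 1.12% of the intervals gained in culture and 1.33% of all, and in members it was no more frequent than the same half-sites at other spacings (median 0.681%). Motifs of homeodomain proteins, which set segmental and motor neuron identity, were more frequent in members than in intervals gained in culture. HOX TTTATNG stood at 13.4% against 9.82% (11.6% of all intervals) and TAATTA at 6.00% against 3.78% (5.54% of all). In the intervals opened by P4 they stood at 10.7% and 5.81%, the latter near the share in members. Over the whole interval TAATTA was found in 12.2% of members and 12.2% of all intervals, against 10.1% of those gained in culture. Tissue chromatin came from brachial, thoracic and lumbar cord and the cultures were of cervical identity, so cord level and culture cannot be told apart. Onecut ATCNAT stood at 23.4% against 21.2%, an order that turned over the whole interval (43.96% against 44.8%), and the E-box CAGCTG at 16.8% against 17.9%. The CTCF core AGGNGGC was found in 10.2% of members, 10.4% of the intervals gained in culture and 15.7% of all. Base composition moved with these shares, with a median GC content of 45.3% in members, 46.3% in the intervals gained in culture and 47.3% in all, and its part in the AT-rich motifs was not tested. All motifs were searched on both strands, and a match is a run of letters and not evidence of binding.

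**Figure D4:**
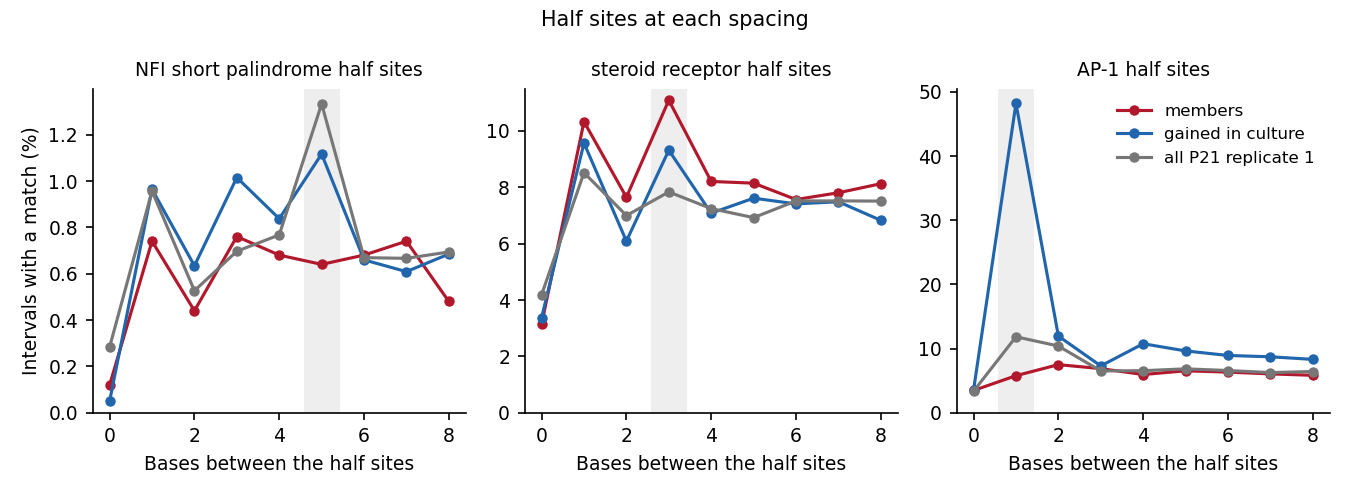
Share of windows (%) in which the half-sites of the short NFI palindrome, the steroid receptor motif and AP-1 stood 0 to 8 bases apart, with the spacing of the motif shaded, for members, adult intervals gained in culture and all P21 replicate 1 intervals. AP-1 peaks at its spacing at 48.2% in the intervals gained in culture and not in members, at 5.78%.

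Members were spread over many genes. Within 100 kb, 3037 of them had 1 of 2313 protein-coding genes as the nearest start site, 130 genes had at least 3 members and 23 had at least 5. *Adgrl3* (chr5:81020138-81825133), a latrophilin that organises synapses, and *Nrxn3* (chr12:88722876-90334935) had 9 members each, of 28 and 45 adult intervals nearest to them. *Lingo2*, *Ralyl* and *Zbtb20*, a zinc-finger repressor, had 7 each. With 6 each followed the calcium channel gene *Cacna1e*, the adhesion gene *Cadm2*, the translation regulator *Cpeb2* (6 of only 12 adult intervals), the potassium channel subunit gene *Dpp6*, the kainate receptor gene *Grik2*, the deacetylase gene *Hdac4*, the potassium channel gene *Kcnn2* and the splicing factor gene *Rbfox1*. These genes are long. The median annotated span of the tested genes with at least 3 members was 330.4 kb, against 85.1 kb for those with at least 1 and 27.2 kb for all tested protein-coding genes.

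The RNA of these genes, which the choice of intervals did not use, differed between P21 and DIV28 more often upwards than downwards. Expected counts were tested with edgeR's quasi-likelihood test, and a gene was called when p before adjustment was below 0.001 with a 2-fold or larger difference. Across all genes, 13.6% were called higher and 14.5% lower at P21 than at DIV28, and of protein-coding genes 11.2% and 15.8%. Of the 1848 tested genes nearest to at least 1 member, 370 (20.02%) were called higher and 196 (10.6%) lower, and of the 124 nearest to at least 3 members, 46 (37.1%) higher and 5 lower. Their median change was 0.16 and 0.73 on the log2 scale, against −0.02 for all genes tested. Genes nearest to intervals gained in culture stood at 16.5% higher and 14.1% lower.

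Gene length moved with this result. Among genes spanning over 400 kb, 40.2% of those nearest to at least 1 member and 32.4% of those nearest to none were called higher at P21, and among genes of 200 to 400 kb 30.1% and 28.7%. Between 100 and 200 kb the shares were 23.5% and 15.4%, and under 20 kb 11.3% and 7.03%. Between 20 and 50 kb they were 12.6% and 8.09%, and between 50 and 100 kb 13.7% and 12.4%. The share was higher for genes with members in each of the 6 classes, and the difference within a class was not tested. Oligodendrocyte RNA moved with it too. The 8 oligodendrocyte markers were all called higher at P21, with a summed level of 1209 to 1599 CPM at P21, 419 to 628 at P56, 306 to 328 at 2yr and 12.01 to 12.5 at DIV28. Of the 37 markers of other cell types, 15 to 18 were at or above 5 CPM at P21, 12 to 13 at P56, 10 to 12 at 2yr and 7 to 8 at DIV28. With P56 or 2yr in place of P21, 43 and 41 of the 124 genes with at least 3 members were called higher than at DIV28, and 372 and 335 of the genes with at least 1, against 14.0% and 11.9% of all genes tested. The part of these cells' RNA in the counts was not tested otherwise. These comparisons, and the division by length, were chosen after the data were seen.

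**Figure D5:**
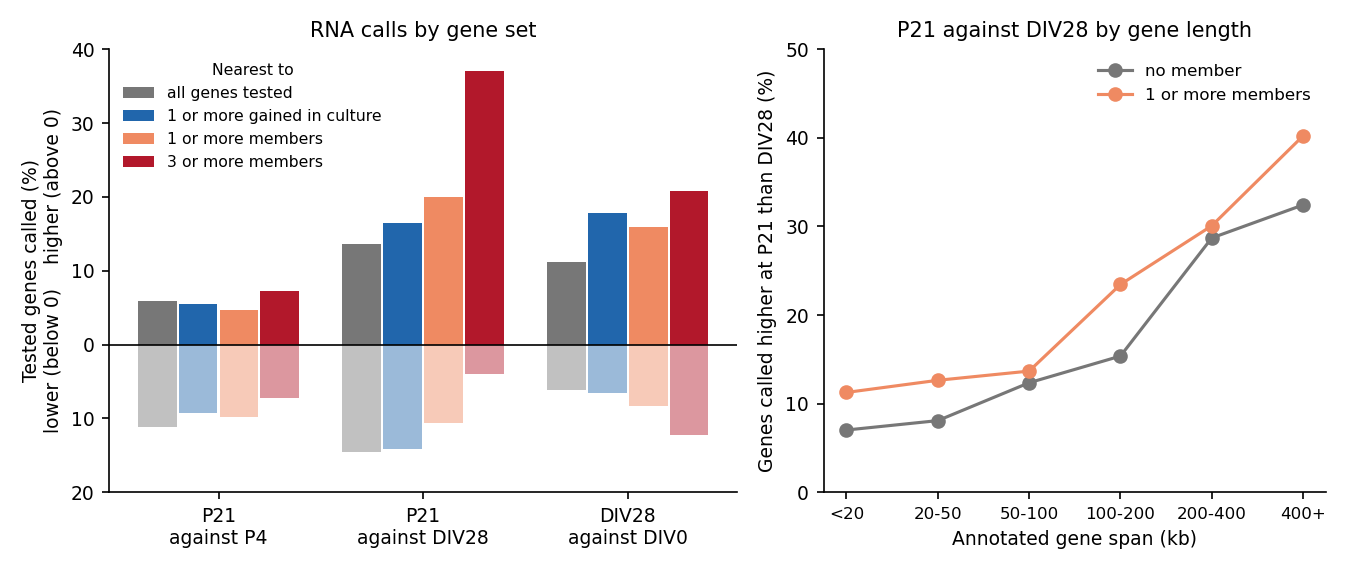
Left, share of tested genes (%) called higher (above 0) and lower (below 0) in 3 comparisons, by the intervals to which they are nearest. Right, share called higher at P21 than at DIV28 by annotated span (kb), where genes with members stood at 40.2% and genes with none at 32.4% in the longest class.

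Between P4 and P21 the shares called near members lay close to those of all genes. In this comparison, which shares the P21 libraries with that of P21 and DIV28, 5.85% of all genes were called higher and 11.2% lower. Of 1832 genes nearest to at least 1 member, 87 (4.75%) were higher and 179 (9.77%) lower, and of 124 nearest to at least 3 members 9 were higher (7.26%) and 9 lower. Vessel RNA moved with this comparison, the 6 endothelial and 3 pericyte markers all being called lower at P21. At P4, 26 to 27 of the 37 markers were at or above 5 CPM. The paper reports some blood vessel contamination of the nuclei purified at E13.5 and P4, and purer nuclei from P13 on. The part of vessel RNA in these counts was not tested. In culture, between DIV0 and DIV28, which shares the DIV28 libraries, 11.2% of all genes were called higher and 6.12% lower, and of 1669 genes nearest to a member 265 (15.9%) were higher and 139 (8.33%) lower. Of 115 genes with at least 3 members 24 were higher and 14 lower. Genes near intervals gained in culture stood at 17.9% higher and 6.58% lower in that comparison. Gene length moved with it too. Of protein-coding genes under 20 kb 9.80% were called higher and 3.48% lower, and of those over 400 kb 24.5% and 11.8%. In the longest class the shares were 25.1% and 12.6% with members and 23.7% and 10.7% without. Between 20 and 50 kb and between 50 and 100 kb the share called higher was smaller with members, and in the other classes larger. The share called lower went both ways. The difference within a class was not tested.

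Of the 13 genes with the most members, 4 were called higher at P21 than at DIV28 and none lower, and none was called between P4 and P21. *Zbtb20* stood at 273.8, 349.4 and 347.0 CPM at P21, at 239.8, 279.0 and 225.2 at P4, at 244.4 and 225.1 at DIV0 and at 25.6 and 52.2 at DIV28. All 3 P21 libraries lay above both of DIV28, by 3.01 on the log2 scale (SE 0.31, adjusted p = 8.02e-08), and in culture the gene fell from DIV0 to DIV28. *Lingo2*, a transmembrane protein of neurons, read 80.4, 91.5 and 86.8 CPM at P21, 86.5, 133.5 and 83.0 at P4 and 11.6 and 12.4 at DIV28, higher at P21 than at DIV28 by 2.82 (SE 0.28, adjusted p = 6.94e-08). *Kcnn2*, a calcium-activated potassium channel that sets the after-hyperpolarisation, read 132.6, 132.4 and 124.7 CPM at P21 and 30.8 and 32.6 at DIV28, a difference of 2.01 (SE 0.31, adjusted p = 1.44e-05). *Adgrl3* differed by 1.09 (SE 0.21, adjusted p = 0.000217), from 224.2, 244.5 and 208.1 CPM at P21 against 107.5 and 101.4 at DIV28. *Nrxn3*, with as many members, was not called, at 220.3, 225.2 and 260.8 CPM at P21 and 348.5 and 260.1 at DIV28.

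Among the 46 genes with at least 3 members and higher RNA at P21 than at DIV28, the largest log2 differences were those of *Ndst4*, a heparan sulfate-modifying enzyme, at 7.09, the adhesion gene *Kirrel3* at 6.39, *Cntnap4*, a neurexin-like protein, at 6.27, the ryanodine receptor *Ryr3* at 5.94, the prolactin receptor *Prlr* at 5.44 and the procollagen protease *Adamts2* at 5.42. These 6 were chosen after their values were seen. *Ryr3* had a mean of 809.1 CPM at P21 and 13.1 at DIV28, while the other 5 lay between 21.7 and 73.2 at P21 and at or below 1.33 at DIV28. The 5 genes called lower were *Mtcl1*, *Nlgn1*, *Pde4b*, *Plcl2* and *Tspan9*, with log2 differences between −2.27 and −1.05. Of the nearest genes of the 12 named intervals, 3 of the 11 tested were called higher at P21 than at DIV28 (*Arhgef3*, *Fam135b* and *Tfdp2*). In that comparison 1 was lower (*Ramac*), and none was called between P4 and P21.

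RNA of some of the factors whose motifs were counted was called between adult and cultured neurons. Of the 6 tested AP-1 genes, 4 were called lower at P21 than at DIV28 and none higher. Of the 26 adult intervals nearest to an AP-1 gene 0 were members, too few to set against the 6.23% of all adult intervals. *Jun* read 34.5, 36.8 and 37.4 CPM at P21, 104.2, 88.0 and 95.3 at P4, 207.6 and 127.3 at DIV0 and 584.2 and 761.1 at DIV28. Both DIV28 libraries lay above those of the other 3 groups, with a log2 difference of P21 minus DIV28 of −4.23 (SE 0.28, adjusted p = 2.69e-10), and *Fosl2*, *Junb* and *Jund* were called in the same direction. Of the 4 NFI genes, 3 were called higher at P21 than at DIV28. *Nfib*, nearest to 2 members, read 145.1, 177.3 and 141.2 CPM at P21, 218.1, 183.3 and 208.3 at P4, 32.0 and 34.6 at DIV0 and 2.7 and 7.1 at DIV28. Its P21 libraries lay above both culture groups, and P21 exceeded DIV28 by 4.80 on the log2 scale (SE 0.41). *Nfia* and *Nfix* differed by 2.55 and 2.01, and *Nfic* by 0.43 without being called. By immunostaining, the paper reports robust NFIA and NFIB protein in motor neurons at DIV28, which nuclear RNA does not measure.

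Steroid receptor genes were also near members. The mineralocorticoid receptor gene *Nr3c2*, nearest to 1 member, read 133.1, 150.7 and 118.3 CPM at P21 and 12.5 and 11.3 at DIV28 and was called higher at P21, by 3.49 on the log2 scale (SE 0.32). The glucocorticoid receptor gene *Nr3c1*, also nearest to 1 member, read 29.8, 37.6 and 38.9 CPM at P21 and 38.8 and 25.8 at DIV28, groups that overlapped. Of 18 tested genes known to respond to glucocorticoids, 6 were called higher at P21 than at DIV28 and 7 lower. Among those nearest to members, *Fkbp5*, a chaperone of steroid receptors, and the kinase *Sgk1* were higher and the phosphatase *Dusp1* lower. Of the 8 tested ERR, thyroid hormone and ROR receptor genes 4 were called higher and none lower, and of 3 tested MEF2 genes 1 was called higher.

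The gene lists of the adult motor neuron held few adult intervals each, so their shares of members are only set beside the 6.23% of all adult intervals. Motor neuron markers had 5 of their 35 adult intervals among the members (14.3%), all nearest to *Chat* or *Slc5a7*. This was not particular to them, with 4 of 29 (13.8%) for steroid receptor genes and 2 of 12 (16.7%) for microglia markers. Oligodendrocyte markers had 1 of 31 (3.23%). The 13 genes that the study examined in situ, a list chosen on these samples and no independent evidence of direction, were called higher at P21 than at P4 in 12 cases and than at DIV28 in 9, with 2 lower than at DIV28. They had 2 of 54 (3.70%). One was chr10:79965204-79965745, with its summit in an intron, 5 bp from another annotated start site and 5.22 kb from that of *Grin3b*, an NMDA receptor subunit, which read 26.9, 28.3 and 21.6 CPM at P21 and at most 0.9 at P4 and 1.3 at DIV28. The other was chr8:119638250-119638648, 2.73 kb upstream of *Kcng4*, a potassium channel subunit, which read 31.6, 35.3 and 32.3 CPM at P21, 1.7 to 4.1 at P4 and 0 in both DIV28 libraries. That interval had a peak in both cultures with TTX, at a −log10 p of 6.64 and 4.47. Of 14 genes of perineuronal nets and myelinated axons 8 were called higher at P21 than at DIV28 and none lower, and 5 of the 14 were nearest to members, 10 of 150 adult intervals (6.67%). *Cntnap2*, which clusters potassium channels beside nodes of Ranvier, had 3 and was called higher, while *Tnr*, the matrix protein tenascin-R, had 4 and was not called at a log2 difference of 1.00. HOX genes had 2 of 72 (2.78%), at *Hoxb1* and *Hoxb4*. Of 30 tested HOX genes 16 were called higher at P21 than at DIV28 and 2 lower. The cultures were of cervical identity and the P21 RNA came from brachial and lumbar cord, so cord level and culture cannot be told apart.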

How the data were processed

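The authors trimmed the reads and, per the submitters' processing notes, used Trim Galore, cutadapt 0.6.2, STAR 2.5.2b, RSEM 1.3.0, BWA 0.7.1.7, SAMtools 1.7.2 and MACS2 2.2.7.1 with mm10. The deposited peak lists give for each peak in each library a fold enrichment (ratio of signal to local background), a −log10 p and a −log10 q. The authors deposited RSEM expected counts for 55385 genes per library, and these were rounded to whole numbers here.

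Duplicate intervals were merged, keeping the highest −log10 p, and overlap was at least 1 bp. Members and gene lists were chosen with earlier results of these data known. Start sites came from GENCODE M21, and the nearest protein-coding start site within 100 kb named a gene. Of the 2313 genes so named, 2310 were found in the RNA files. Motifs were searched 100 bp to each side of the summit on both strands, and NFI half-sites include those inside NFI palindromes. The fits held all 18 in vivo libraries for P21 and P4, these with the 6 of DIV0, DIV7 and untreated DIV28 for P21 and DIV28, and all 9 culture libraries for DIV28 and DIV0, with 1 coefficient per group and a shared spread. Genes that reached 5 CPM in all replicates of 1 or more groups of the fit were tested with edgeR 4.0.16 (TMM, quasi-likelihood, R 4.3.3) and adjusted by Benjamini-Hochberg over all genes tested. A call needed an unadjusted p under 0.001 and a 2-fold change. DESeq2 1.42.0, other normalization and filters, other overlaps, stricter peaks, other gene assignments, a replicate block and leaving out each library were the alternatives. Scripts ran in Python 3.11.15 (numpy 2.4.6, pandas 2.3.3, scipy 1.17.1, pysam 0.24.0, matplotlib 3.10.9) and were tested on simulated data.

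The named intervals were the 12 members with the highest lowest adult −log10 p, 1 per gene, within 100 kb of a protein-coding start site and not on chromosome 18. The named genes were those nearest to them, the 13 with the most members and those of the lists. Sequences shown were the highest-ranked member with each motif, with chromosome 18 again left out. Windows touching an untranslated region were left out, and the short NFI palindrome replaced the full one, both choices made after the data were seen. One RNA library whose title gave DIV0 and whose file name gave DIV28 entered no comparison. The replicate numbers stated in the paper go with the file name. The DIV28 group here may therefore lack a library that the paper used. Some items of the lists are not reported here. Same-numbered libraries of P21 and P4 deviated together with r between −0.01 and 0.13, so no pairing was used. CPM values are TMM-normalized.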

Additional observations from a re-analysis of the deposited data

How the results depend on the processing

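With a −log10 q of at least 2 in the required peaks 2684 members were left. Leaving out 1 library gave 5015 to 6514 members, with 6514 without DIV28 replicate 1, 6486 without P56 replicate 1 and 6270 without P4 replicate 1. With peaks covering at least 50% of the interval, the share of members with a peak in at least 1 TTX library was 9.47%, against 14.5%. The distal share was 91.2% for the stricter peaks, 94.2% at 1000 bp and 96.7% counting protein-coding start sites alone. With the stricter peaks 2 members lay near markers of other cell types.

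The stricter peaks, which leave fewer genes, gave for genes with at least 1 member 107 lower between P4 and P21, 215 higher and 105 lower between DIV28 and P21, and 155 higher and 74 lower between DIV0 and DIV28. For genes with at least 3 members they gave, in the same order, 2 higher and 1 lower, 16 higher and 0 lower, and 9 higher and 2 lower. With a member assigned to every protein-coding gene with a start site within 50 kb of it, genes with at least 3 members gave 5 higher, then 24 higher and 2 lower, then 12 higher and 6 lower. The stricter peaks and this assignment kept the main fits. Over all genes the shares were thus still 5.85% higher and 11.2% lower, 13.6% and 14.5%, and 11.2% and 6.12%. Other sets of genes were counted, so these counts alone do not show whether the shares near members changed. An adjusted p under 0.05 as the call gave, between DIV0 and DIV28, 417 higher and 234 lower with at least 1 member and 37 higher with at least 3. The share of all genes under that call is not given here, so no excess can be read from these counts.

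Leaving out 1 library gave 70 to 80 higher and 153 to 172 lower between P4 and P21 (at least 3 members: 8 to 10 and 7 to 11), 299 to 353 higher and 145 to 208 lower between DIV28 and P21 (40 to 46 and 4 to 5), and 146 to 228 higher and 65 to 78 lower between DIV0 and DIV28 (16 to 21 and 6 to 7), where the lone library was taken to vary like the other groups. In that last comparison the count of higher genes moved by over 1.5 times without DIV0 replicate 1 (155) and without DIV0 replicate 2 (146), and that of lower genes without each of the 4 libraries. Over all genes tested the shares called higher and called lower between DIV0 and DIV28 also fell in each of these fits. The shifts were therefore not particular to genes near members. Their cause was not tested.

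Same-numbered libraries did not deviate together in every pair, so they share only a number. With the replicate block the genes with at least 1 member gave 87 higher and 182 lower between P4 and P21, 366 and 196 between DIV28 and P21 and 299 and 160 between DIV0 and DIV28. These were 4.75% and 9.93% of the genes tested, against 5.56% and 11.2% of all genes, then 19.8% and 10.6% against 13.3% and 14.2%. Last came 17.9% and 9.59% against 12.4% and 7.26%. Of all values recomputed, 225 stayed within their limits and 66 moved. The short NFI palindrome, the other spacings, the use of P56 or 2yr in place of P21 and the classes of gene length were added after the data were seen.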
